A study of Mus musculus with 24 samples.

Results

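Messenger RNA of mouse hearts after 0.5 h of reperfusion was compared with that of hearts at the end of 45 min of ischemia. The reperfused hearts also had 0.5 h more since the start of ischemia. Returned blood flow and elapsed time therefore cannot be told apart in this comparison. Libraries were chosen by their treatment label alone, which gave 3 of 0.5 h of reperfusion and 3 of ischemia, 6 of the 24 libraries of the series. All mice were wild-type C57BL/6, an inbred strain. Hearts of the 0.5 h group had 45 min of ischemia and then 0.5 h of restored flow. Hearts of the ischemia group had 45 min of ischemia and no reperfusion, and a sham group of 3 libraries had sham surgery. The labels name no allele, drug or age. They do not say whether tissue from the zone without flow was kept apart from the rest of the heart, or whether replicate libraries were made from different mice.

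In heart muscle, returning blood changes oxygen, acidity and calcium within minutes and is accompanied by a burst of reactive oxygen species. Immediate early genes answer such stress without new protein synthesis, because the transcription factors that drive them are already present. Misfolded proteins release heat shock factor 1, which binds heat shock elements near chaperone genes, while in endothelium the drag of flowing blood induces Klf2 and Klf4.

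Reads counted in genes numbered 14531089 to 16556020 in each of the 6 libraries, and 15128 genes entered the test. Levels are given as CPM, read counts scaled to a common library total with TMM factors, and differences as log2 fold changes (0.5 h over ischemia) ± SE. The tissue label fits its markers: all 16 ventricular cardiomyocyte markers were tested, and together they held 101131 to 103706 CPM at 0.5 h and 90982 to 97794 CPM in ischemia. The library labelled ischemia replicate 3, called ischemia 3 here, stood apart from its group, and whether its label is right could not be settled from the labels. Its counts differed from those of ischemia replicates 1 and 2 by a chi-square of 66.6 and 58.3 per degree of freedom over genes, and from the 3 libraries of 0.5 h by 8.20 to 16.5. Ischemia replicates 1 and 2 differed from each other by 11.5, and the libraries of 0.5 h among themselves by 8.86 to 12.4. The results are therefore given with and without ischemia 3.

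With all 24 libraries in the fit, 5 genes were called higher at 0.5 h than in ischemia and 0 lower, 0.0331% of the genes tested (edgeR's quasi-likelihood test, Benjamini-Hochberg adjusted p under 0.05). They were Hspa1b and Hspa1a, neighbouring genes of the inducible HSP70 chaperone, Jun, which forms AP-1 transcription factors with Fos, Klf2, a flow-induced endothelial transcription factor, and Plekhh3, named for its pleckstrin homology, MyTH4 and FERM domains. An unadjusted p under 0.05 was reached by 1871 genes. DESeq2 called 43 genes higher and 16 lower.

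The promoter stretches of the HSP70 genes and Jun are shown because these genes lead the comparison and HSP70 transcription is known to run through heat shock elements. Each run holds the 250 bases before the transcription start (RefSeq, GRCm38.p6, minus strand, 5′ to 3′), at chr17:34972157-34972406 for Hspa1a, chr17:34959239-34959488 for Hspa1b and chr4:95052223-95052472 for Jun. Capitals mark a short heat shock element, GAANNTTC or TTCNNGAA, and an AP-1 or CRE-like motif, TGANTCA, TGACATCA or TGACGTCA, with N any base, searched on both strands.
Hspa1a: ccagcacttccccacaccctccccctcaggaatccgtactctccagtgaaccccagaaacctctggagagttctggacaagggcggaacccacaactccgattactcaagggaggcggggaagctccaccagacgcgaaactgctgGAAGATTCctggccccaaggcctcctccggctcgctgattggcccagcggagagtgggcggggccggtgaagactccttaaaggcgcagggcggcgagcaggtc
Hspa1b: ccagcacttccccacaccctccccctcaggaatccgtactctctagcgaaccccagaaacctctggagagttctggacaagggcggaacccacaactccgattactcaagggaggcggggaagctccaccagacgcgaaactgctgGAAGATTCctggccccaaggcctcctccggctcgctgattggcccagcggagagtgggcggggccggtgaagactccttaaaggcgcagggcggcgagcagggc
Jun: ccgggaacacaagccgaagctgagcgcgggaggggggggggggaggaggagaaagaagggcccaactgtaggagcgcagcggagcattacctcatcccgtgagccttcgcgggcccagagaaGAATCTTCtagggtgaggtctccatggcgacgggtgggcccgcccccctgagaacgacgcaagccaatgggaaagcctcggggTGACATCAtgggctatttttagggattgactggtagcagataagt
The Hspa1a and Hspa1b stretches differed at 3 of 250 bases, and both held the short heat shock element 104 to 97 bases before the start. In the Jun stretch that element lay 128 to 121 bases and the AP-1 or CRE-like motif 45 to 38 bases before the start. Of 32851 mouse promoter stretches of this length, 12.8% held the short heat shock element and 10.9% the AP-1 or CRE-like motif. An exact match to a longer heat shock element of 3 units occurred in 0.466% of them and in none of the 3 shown here. Arrays with imperfect units were not searched, so these stretches may still hold a longer element of that kind. The stretches of Klf2, Plekhh3 and Atf3 held no match to these motifs, nor did any searched stretch hold a CArG box, a motif bound by SRF and found in 1.47% of all stretches.

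Hspa1b (ENSMUSG00000090877, exons within chr17:34956436-34959238, mm10) had 67.4, 129 and 736 CPM in the 3 libraries of 0.5 h, against 1.81, 1.13 and 3.35 CPM in those of ischemia. The groups were far apart, and 0.5 h replicate 3 stood well above the other libraries of its group. The log2 fold change was 7.17 ± 0.95 (adjusted p = 0.000619), and 7.71 ± 1.21 without ischemia 3 (adjusted p = 0.00229). Hspa1a (ENSMUSG00000091971, chr17:34969190-34972156) had 74.8, 86.7 and 565 CPM at 0.5 h, against 2.21, 3.11 and 4.39 CPM in ischemia, a difference of 6.21 ± 0.80 (adjusted p = 0.000619; 6.51 without ischemia 3, adjusted p = 0.00207). The same library was again the highest, and ischemia 3 lay close to the other ischemia libraries. Only 72.2% of the reads of Hspa1b and 68.0% of those of Hspa1a mapped to a single place, so the split between the copies is uncertain, and an exon of Hspa1a also overlaps Gm20481 on the opposite strand. Of 19 other settings of the fit with all libraries, 18 called Hspa1a and 17 Hspa1b. A fit to the 6 libraries alone called neither (adjusted p = 0.120 for both), and limma-voom did not call Hspa1b.

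Jun (ENSMUSG00000052684, chr4:95049034-95052222) had 468, 216 and 804 CPM at 0.5 h, against 81.9, 106 and 148 CPM in ischemia. All libraries of 0.5 h lay above all of ischemia, with ischemia 3 the highest of the ischemia libraries. Jun rose by 2.15 ± 0.35 (adjusted p = 0.0106), and by 2.40 ± 0.41 without ischemia 3 (adjusted p = 0.00296). Its exon overlaps Junos on the opposite strand, and whether the counting used strand is not given in the sources used here. Klf2 (ENSMUSG00000055148, chr8:72319033-72321656) had 229, 135 and 304 CPM at 0.5 h, against 59.3, 73.3 and 95.7 CPM in ischemia (1.55 ± 0.26, adjusted p = 0.0106; 1.75 ± 0.29 without ischemia 3, adjusted p = 0.00271). For Klf2, too, the groups did not overlap. Plekhh3 (ENSMUSG00000035172, chr11:101162679-101171351) had the tightest values, 22.0, 24.5 and 24.4 CPM at 0.5 h, against 11.3, 10.4 and 15.96 CPM in ischemia (0.91 ± 0.16, adjusted p = 0.0312; 1.13 ± 0.17 without ischemia 3, adjusted p = 0.00207). An exon of Plekhh3 overlaps Cntnap1 on the opposite strand.

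**Figure D1:**
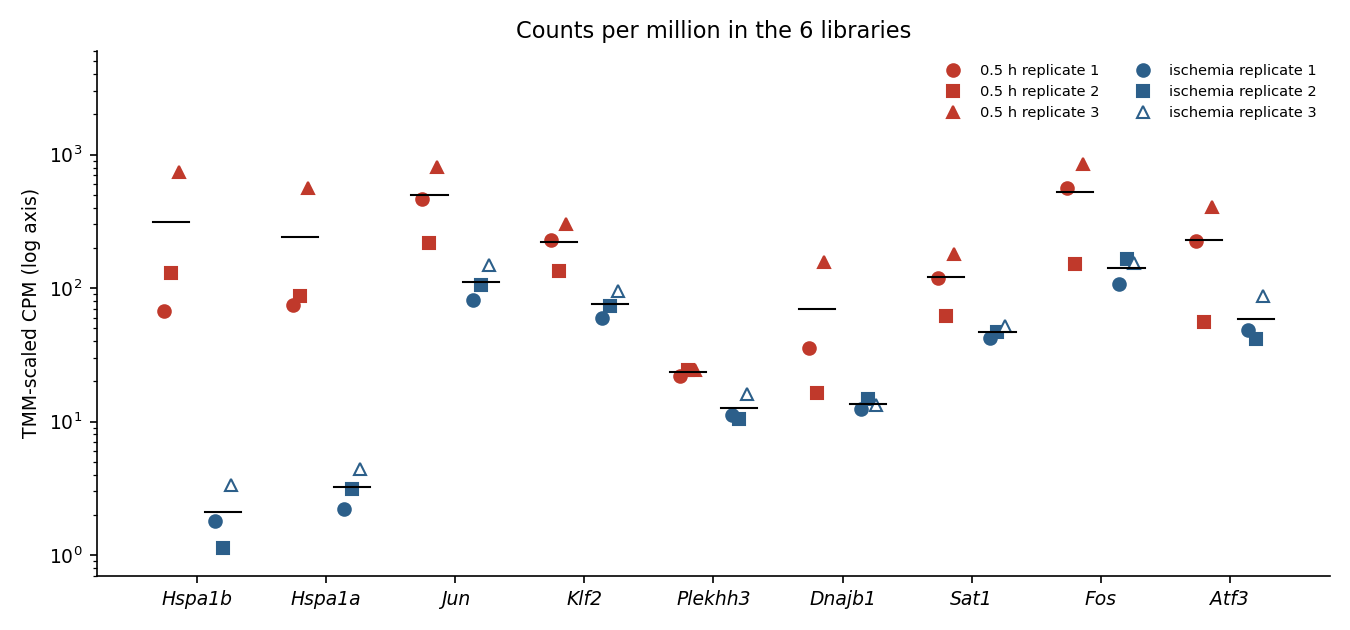
TMM-scaled CPM (log axis) of 9 genes in the 3 libraries of 0.5 h (red) and the 3 of ischemia (blue); marker shapes are replicates, the hollow triangle is ischemia replicate 3 and black bars are group means. The 2 HSP70 genes stand at 67.4 to 736 CPM at 0.5 h and at 1.13 to 4.39 CPM in ischemia, and 0.5 h replicate 2 is the lowest red point for Jun, Klf2, Dnajb1, Sat1, Fos and Atf3.

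The number of calls depended on which library was in the fit. Without ischemia replicate 1, ischemia replicate 2 or 0.5 h replicate 3, 2 genes were called each time, Hspa1a and Hspa1b, and without 0.5 h replicate 2 there were 40. Without ischemia 3 there were 1156. In that fit 666 genes were called higher at 0.5 h (4.31% of 15442 tested) and 490 lower (3.17%), 7.49% in all, of which 139 rose and 68 fell by at least 2-fold. The count was 7 when ischemia replicate 1 was left out as well, 453 without ischemia replicate 2, and 351, 581 and 501 without 0.5 h replicates 1, 2 and 3. Leaving out ischemia replicate 1 or 2 here left 1 ischemia library, which is assumed to vary like the other groups. An unadjusted edgeR p under 0.05 was reached by 3763 genes without ischemia 3, against 1871 with all libraries, which made the adjustment less strict there. Fos, Dnajb1, Sat1, Gadd45b and Hspb1 had a larger unadjusted p without ischemia 3 but a smaller adjusted p.

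Over these 1156 genes each library was placed on a scale from 0, the mean of ischemia replicates 1 and 2, to 1, the mean of 0.5 h, on log2(CPM + 0.5). The choice of genes fixes the libraries of 0.5 h near 1 (medians of 1.06, 0.969 and 0.967) and ischemia replicates 1 and 2 near 0. Ischemia 3, which had no part in the choice, had a median of 0.964 and lay past the midpoint for 1073 genes (92.8%). It stayed on the ischemia side for 50 genes higher and 33 lower at 0.5 h. Among the higher ones were Hspa1b, Hspa1a, Jun and Klf2. Sham libraries lay at 0.0681 to 0.148.

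Measures of library make-up moved with this split. Duplicate reads made up 44.7%, 46.1% and 44.4% of counted reads in the libraries of 0.5 h, against 52.7%, 54.5% and 41.2% in ischemia replicates 1, 2 and 3. Mitochondrial genes held 22.3%, 20.02% and 21.1% at 0.5 h, against 30.2%, 29.7% and 19.0% in ischemia. On both, ischemia 3 was the lowest of the 6 libraries and ischemia replicates 1 and 2 the highest. Mean mitochondrial shares were 21.2% ± 1.16 at 0.5 h and 26.3% ± 6.32 in ischemia (SD, n = 3 each; two-sided exact permutation p = 0.4, where 3 against 3 cannot go below 0.1). The duplicate share averaged 45.1% ± 0.910 at 0.5 h and 49.5% ± 7.25 in ischemia (SD, n = 3 each; exact permutation p = 0.4). With duplicates removed, the mitochondrial share was 7.29% ± 0.465 at 0.5 h and 7.57% ± 0.957 in ischemia (exact permutation p = 0.7, n = 3 each).

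Base composition moved with it as well. Genes called higher without ischemia 3 had a median GC content of 57.4% in their longest transcript, those called lower 41.3%, and all tested genes 49.7%. Their median gene lengths, as given in the deposited counts, were 2795 and 5178 bases, against 3643 bases for all tested genes. The GC tilt of a library, its smoothed log2 deviation at 60% GC minus that at 40% GC, was 0.270, 0.260 and 0.204 at 0.5 h, against -0.638, -0.457 and 0.348 in ischemia replicates 1, 2 and 3, and -0.558 to -0.437 in sham. Ischemia 3 thus had the highest tilt of the 6 libraries, and the other ischemia libraries lay with sham.

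**Figure D2:**
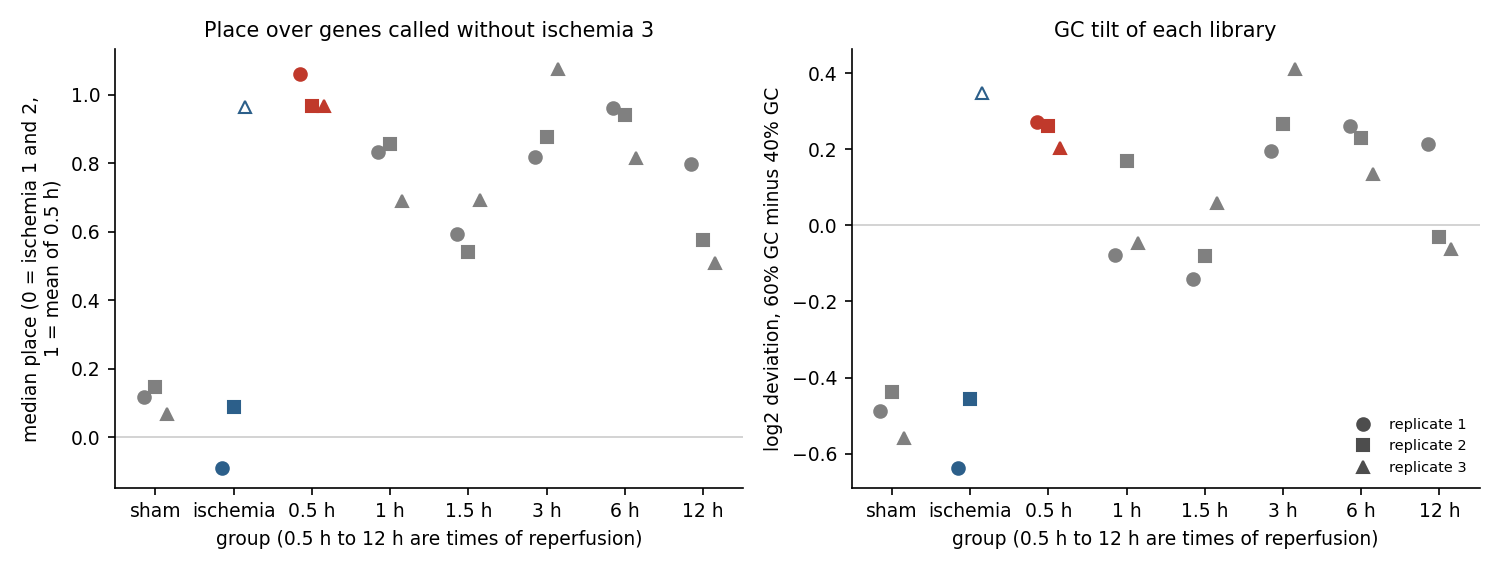
Left: median place of each of the 24 libraries over the 1156 genes called without ischemia replicate 3 (0 is the mean of ischemia replicates 1 and 2, 1 the mean of 0.5 h). Right: GC tilt, the log2 deviation at 60% GC minus that at 40% GC; red is 0.5 h, blue ischemia, grey the other groups, and the hollow triangle is ischemia replicate 3, at 0.964 and 0.348.

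Further fits, chosen after these values were seen, took the measures into account. When each library's smooth deviation along GC content was removed, 94 genes were called without ischemia 3 (0.609% of those tested), 81 higher (0.525%) and 13 lower (0.0842%), and 83 of them were among the 1156. Their median GC content was 48.4% for the higher and 53.04% for the lower. With all libraries the correction left 4 calls (0.0264%), Hspa1a, Hspa1b and Jun from the 5 above and Sat1, which encodes the enzyme that acetylates spermidine and spermine. Klf2 then stood at 1.24 ± 0.24 (adjusted p = 0.0536) and Plekhh3, with a GC content of 63.9%, at 0.54 ± 0.155 (adjusted p = 0.358). With the duplicate share as a covariate, 2 genes were called with all libraries, again Hspa1a and Hspa1b, and 32 without ischemia 3 (28 higher and 4 lower). The part of GC content and duplication in the individual differences was not tested further.

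**Figure D3:**
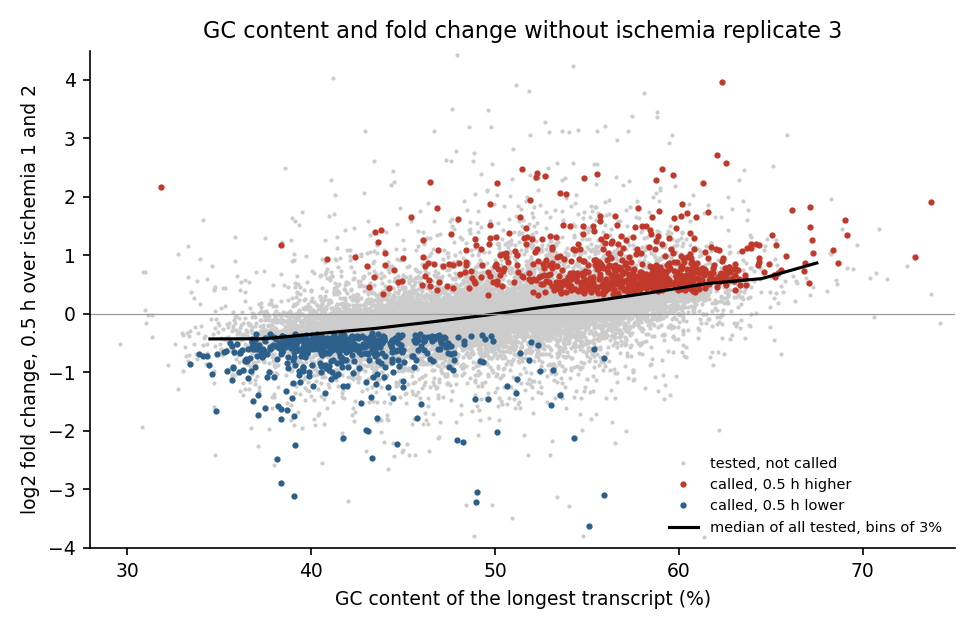
GC content of the longest transcript (%) against the log2 fold change of 0.5 h over ischemia replicates 1 and 2 for each tested gene; red genes were called higher at 0.5 h, blue genes lower, grey genes were not called, and the black line is the median in bins of 3% GC. The median runs from -0.43 in the first bin to 0.87 in the last, and 13 genes lie beyond the vertical axis, 3 of them called.

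Immediate early transcription factors formed the list with the largest median. Of 27 tested members 26 had a positive difference with all libraries (median 0.97, against -0.01 for all tested genes), and Jun was the only call. Without ischemia 3, 17 were called higher and 0 lower (median 1.31), where 4.31% and 3.17% of all tested genes were. With the GC correction 4 were called higher, where 0.525% of all tested genes were: Jun, Junb, Ier5 and Klf6. The same shares apply to the lists that follow. Junb, an AP-1 subunit, had 330, 123 and 430 CPM at 0.5 h, against 45.8, 52.8 and 137 CPM in ischemia. Its groups overlapped through ischemia 3 and 0.5 h replicate 2 (1.90 ± 0.38, adjusted p = 0.0629; 2.58 ± 0.38 without ischemia 3, adjusted p = 0.00207), and reads of Prdx2 on the opposite strand may be counted with it. Ier5, an immediate early protein that binds the phosphatase PP2A, had 106, 54.3 and 161 CPM at 0.5 h, against 19.6, 20.6 and 49.8 CPM in ischemia (1.83 ± 0.35, adjusted p = 0.0526; 2.41 ± 0.37 without ischemia 3, adjusted p = 0.00207). For Ier5 the groups did not overlap.

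Fos, the partner of Jun in AP-1, had 558, 151 and 852 CPM at 0.5 h, against 106, 164 and 154 CPM in ischemia and a mean of 12.0 CPM in sham. The library of 0.5 h replicate 2 lay within the ischemia range, and ischemia 3 lay between ischemia replicates 1 and 2. Fos was called only without ischemia 3 (1.88 and adjusted p = 0.0887 with it, 1.94 and adjusted p = 0.0219 without). Its unadjusted edgeR p was 0.000142 with ischemia 3 and 0.000674 without, so the call came with the adjustment over all genes. In Ier2, another immediate early gene, the libraries of 0.5 h had 150, 62.9 and 194 CPM and those of ischemia 45.2, 40.8 and 60.1 CPM (adjusted p = 0.0526, and 0.00687 without ischemia 3). The zinc finger factor Egr1 had 723, 265 and 1114 CPM at 0.5 h, against 178, 218 and 286 CPM in ischemia, and was not called in either fit (adjusted p = 0.285 and 0.0591). Fosb, Nr4a1, Nr4a2, Nr4a3, Egr2, Srf, Fosl1, Klf10 and Bhlhe40 were not called in either fit. In 25 of the 27 genes 0.5 h replicate 2 was the lowest library of its group, and without it 40 genes of all tested were called in place of 5.

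Other genes end such signals. Their list held 30 tested inhibitors of MAP kinase and STAT signalling and regulators of mRNA decay, with 0 called with all libraries (median 0.54). Without ischemia 3, 11 were called higher and 0 lower (median 0.68), where 4.31% and 3.17% of all tested genes were. With the GC correction 4 were called: Zfp36, Zfp36l1, Btg1 and Spry2. Zfp36, which marks AU-rich mRNAs for decay, had 429, 190 and 508 CPM at 0.5 h, against 115, 149 and 199 CPM in ischemia (1.28 ± 0.27, adjusted p = 0.073; 1.51 ± 0.30 without ischemia 3, adjusted p = 0.00756). Its relative Zfp36l1 had 49.9, 42.2 and 75.5 CPM at 0.5 h, against 26.3, 23.1 and 37.2 CPM in ischemia, with no overlap (0.95 ± 0.21, adjusted p = 0.0887; 1.18 ± 0.23 without ischemia 3, adjusted p = 0.00659). Gadd45b, a stress-induced regulator of MAP kinase signalling, kept ischemia 3 close to its group, with 42.0, 19.6 and 46.1 CPM at 0.5 h, against 17.3, 11.03 and 15.5 CPM in ischemia (adjusted p = 0.074, and 0.0189 without ischemia 3). Socs3, an inhibitor of cytokine receptors, had 65.6, 14.6 and 107 CPM at 0.5 h, against 8.58, 16.9 and 25.5 CPM in ischemia (adjusted p = 0.151, and 0.0158 without ischemia 3).

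Among 34 heat shock chaperones and co-chaperones, the HSP70 pair gave the only calls with all libraries, and the median of the list was 0.18. Without ischemia 3, 5 members were called higher and 2 lower (median 0.20), where 4.31% and 3.17% of all tested genes were. With the GC correction the 2 HSP70 genes were called. Dnajb1, the HSP40 partner of HSP70, had 35.3, 16.3 and 157 CPM at 0.5 h, against 12.5, 14.7 and 13.2 CPM in ischemia. It was just above ischemia in 0.5 h replicate 2 and far above it in replicate 3 (2.37 ± 0.54, adjusted p = 0.093; 2.36 ± 0.65 without ischemia 3, adjusted p = 0.0309). Hspb1, a small heat shock protein, had 384, 330 and 574 CPM at 0.5 h, against 201, 190 and 233 CPM in ischemia (1.05 ± 0.24, adjusted p = 0.101; 1.14 ± 0.28 without ischemia 3, adjusted p = 0.019). Fkbp4, a co-chaperone of HSP90, was the other gene called higher without ischemia 3. The inducible HSP90 gene Hsp90aa1 (139, 127 and 268 CPM at 0.5 h, against 178, 135 and 122 CPM in ischemia), its constitutive relative Hsp90ab1, Hsph1 and Dnaja1 were not called in either fit. Of these, Hsp90aa1, Hsph1 and Dnaja1 were highest in 0.5 h replicate 3, the library with the most HSP70 reads.

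The 2 chaperones called lower without ischemia 3 act in the endoplasmic reticulum: Dnajb9 had 41.9, 37.9 and 37.8 CPM at 0.5 h, against 73.5, 53.6 and 37.0 CPM in ischemia, and Dnajc3 63.1, 60.3 and 60.1 CPM at 0.5 h, against 99.8, 76.01 and 69.1 CPM in ischemia (adjusted p = 0.0117 for Dnajb9 and 0.0216 for Dnajc3 without ischemia 3, and 0.319 and 0.286 with it). For both, ischemia replicate 1 was the highest library. The list of the endoplasmic reticulum and integrated stress response had 27 tested genes and a negative median (-0.14, and -0.21 without ischemia 3), with 0 called with all libraries. Without ischemia 3, Ppp1r15a and Atf4 were called higher and Pdia3 and Canx lower, where 4.31% and 3.17% of all tested genes were. With the GC correction Ppp1r15a was called. Ppp1r15a, which directs protein phosphatase 1 to the translation factor eIF2alpha, had 97.3, 46.9 and 128 CPM at 0.5 h, against 25.5, 31.6 and 53.04 CPM in ischemia (1.30 ± 0.29, adjusted p = 0.093; 1.67 ± 0.32 without ischemia 3, adjusted p = 0.00578). Atf4, the transcription factor of the integrated stress response, had 83.1, 66.2 and 98.3 CPM at 0.5 h, against 40.02, 56.7 and 59.5 CPM in ischemia (0.66 ± 0.19, adjusted p = 0.255; 0.77 ± 0.22 without ischemia 3, adjusted p = 0.0365). Pdia3, a disulfide isomerase that folds glycoproteins, had 143, 154 and 148 CPM at 0.5 h, against 253, 195 and 170 CPM in ischemia (-0.48 ± 0.14, adjusted p = 0.258; -0.60 ± 0.14 without ischemia 3, adjusted p = 0.0165).

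Of 37 endothelial genes that respond to shear flow, Klf2 was called with all libraries (median 0.32). Without ischemia 3, 8 were called higher and 1 lower (median 0.46), where 4.31% and 3.17% of all tested genes were. With the GC correction Klf2 was called (adjusted p = 0.0415). Dll4, a Notch ligand of arterial endothelium, had 22.6, 21.7 and 29.0 CPM at 0.5 h, against 10.4, 12.3 and 17.5 CPM in ischemia, with no overlap (0.86 ± 0.21, adjusted p = 0.151; 1.11 ± 0.23 without ischemia 3, adjusted p = 0.00877). Edn1, the precursor of the vasoconstrictor endothelin, had 7.61, 7.90 and 15.2 CPM at 0.5 h, against 4.76, 4.17 and 4.06 CPM in ischemia, and was not called in either fit (adjusted p = 0.178 and 0.0535). Klf4, Nos3, Adamts1, Sox17 and Hes1 were also called higher without ischemia 3, and Nostrin, a regulator of endothelial nitric oxide synthase, was the gene called lower. In bulk tissue, fewer cells of a type and less RNA per cell cannot be told apart.

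Of the 28 tested genes in the list of cytokines, chemokines and adhesion molecules, 0 were called in either fit, although the median was 0.58 with all libraries and 0.66 without ischemia 3. The list had 4 members whose libraries at 0.5 h all lay above those of ischemia and 1 with all below, while over all tested genes 7.15% lay wholly above and 7.35% wholly below. The neutrophil chemokine Cxcl1 had 31.2, 15.98 and 36.5 CPM at 0.5 h, against 9.92, 16.1 and 12.7 CPM in ischemia and a mean of 2.62 CPM in sham (1.11 ± 0.33, adjusted p = 0.258; adjusted p = 0.0771 without ischemia 3). Ccl4, a chemokine for monocytes, had 1.74, 0.718 and 4.201 CPM at 0.5 h, against 0.067, 0.777 and 0.274 CPM in ischemia (2.59 ± 0.65, adjusted p = 0.163), on 110 reads at 0.5 h and 17 in ischemia. Il6 had 5.48, 1.08 and 6.33 CPM at 0.5 h, against 1.54, 4.52 and 3.51 CPM in ischemia, with the lowest and the highest library both from 0.5 h. A count of 3 reads, the limit that a count of 0 allows, equals 0.181 to 0.206 CPM in these libraries.

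**Figure D4:**
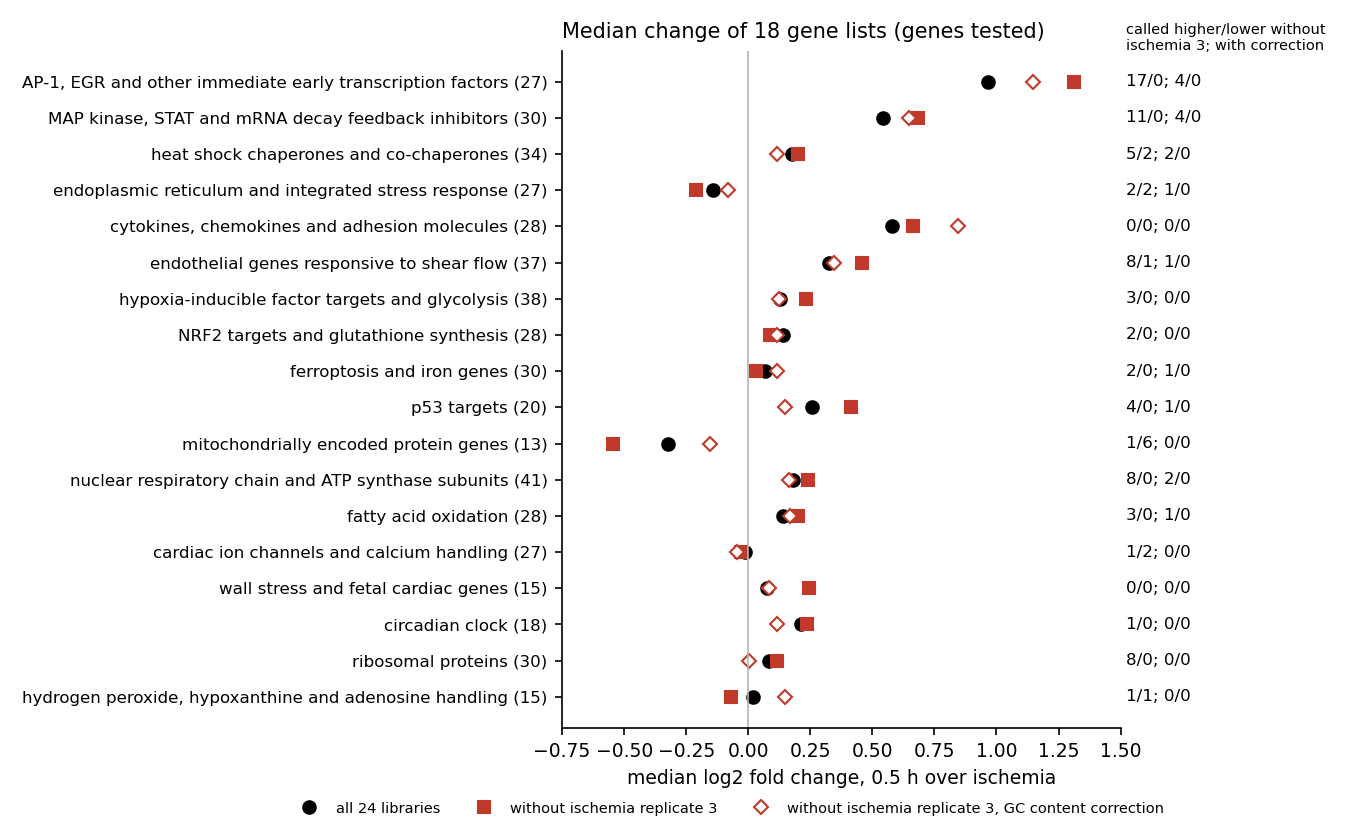
Median log2 fold change (0.5 h over ischemia) of 18 gene lists, with the number of tested genes in brackets, for all 24 libraries (black), without ischemia replicate 3 (red squares) and without it after GC content correction (hollow diamonds). At the right stand the numbers of genes called higher and lower without ischemia replicate 3, then after correction; the immediate early list has the largest medians, and the mitochondrially encoded list stands at -0.15 with the correction and at -0.55 without it.

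Respiratory chain genes were listed by the genome that encodes them, and the difference between the lists was not tested. Of 13 protein genes of mitochondrial DNA, 0 were called with all libraries (median -0.32). Without ischemia 3, 6 were called lower and 1 higher (median -0.55), where 3.17% and 4.31% of all tested genes were. With the GC correction 0 were called and the median was -0.15; their median GC content was 37.1%. The complex I subunit mt-Nd2 had 16502, 14655 and 15662 CPM at 0.5 h, against 30440, 28890 and 14983 CPM in ischemia, with ischemia 3 among the 0.5 h values (-0.67 ± 0.21, adjusted p = 0.286; -0.93 ± 0.18 without ischemia 3, adjusted p = 0.00687). The gene called higher was mt-Atp8, at 7.15, 3.59 and 6.92 CPM at 0.5 h, against 1.41, 1.20 and 7.90 CPM in ischemia (adjusted p = 0.0426, and 0.633 with ischemia 3). It overlaps mt-Atp6, and only 29.6% of its reads mapped to a single place.

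Of 41 nuclear genes of the respiratory chain and ATP synthase, 0 were called with all libraries (median 0.18). Without ischemia 3, 8 were called higher and 0 lower (median 0.24), where 4.31% and 3.17% of all tested genes were. With the GC correction 2 were called, the complex I subunits Ndufb8 and Ndufa2. Outside the list, and noted after their values were seen, the ATP synthase genes Atp5e (adjusted p = 0.00709) and Atp5g3 (adjusted p = 0.0377) were also called higher in that fit. Other such genes outside the list, called or not, were not counted, so these 2 do not add to the list's count. Ndufb8 had 257, 232 and 223 CPM at 0.5 h, against 93.5, 129 and 215 CPM in ischemia. The value of ischemia 3 lay just under those of 0.5 h (0.70 ± 0.22, adjusted p = 0.286; 1.09 ± 0.20 without ischemia 3, adjusted p = 0.00456). Exons of Ndufb8 overlap Gm20538 on the same strand, and reads of Gm20538 may be counted with it. Of 28 genes of fatty acid oxidation 3 were called higher without ischemia 3 (median 0.20, and 0.14 with all libraries and 0 calls). Among them Cpt1b, the muscle form of the enzyme that admits fatty acids to mitochondria, had 10.8, 10.3 and 8.46 CPM at 0.5 h, against 1.88, 2.90 and 6.86 CPM in ischemia (1.32 ± 0.39, adjusted p = 0.258; 2.04 ± 0.42 without ischemia 3, adjusted p = 0.00839), and remained called with the GC correction (adjusted p = 0.0322). Exons of Cpt1b overlap Gm44502 on the same strand, and how reads shared by both genes were counted is not given in the sources used here. The CPM of Cpt1b may therefore not show its full mRNA level. Esrra, a nuclear receptor that drives genes of mitochondrial energy metabolism, was looked at after its value was seen. It had 160, 149 and 148 CPM at 0.5 h, against 71.5, 81.0 and 149 CPM in ischemia (0.60 ± 0.19, adjusted p = 0.286; 1.00 ± 0.16 without ischemia 3, adjusted p = 0.00207).

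Glycolytic and hypoxia-inducible genes numbered 38 in the test, with medians of 0.13 with all libraries and 0.23 without ischemia 3. Without ischemia 3, Pfkl, Tpi1 and Pkm were called higher, where 4.31% of all tested genes were. With the GC correction 0 were called. Pfkl, the liver form of phosphofructokinase, had 142, 120 and 116 CPM at 0.5 h, against 73.2, 79.8 and 119 CPM in ischemia (0.47 ± 0.16, adjusted p = 0.307; 0.72 ± 0.16 without ischemia 3, adjusted p = 0.0117). Hif3a, a hypoxia-inducible factor subunit, had 2.90, 1.08 and 1.12 CPM at 0.5 h, against 3.69, 3.60 and 3.84 CPM in ischemia, and was not called although the groups did not overlap (-1.14 ± 0.37, adjusted p = 0.295; adjusted p = 0.107 without ischemia 3). Of 30 ribosomal protein genes, 8 were called higher without ischemia 3 (median 0.11) and 0 with the correction (median 0.00). Ischemia 3 lay with 0.5 h for these 8, at a median place of 0.917.

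Atf3 and Fancd2 are the genes of the series title. Atf3 (ENSMUSG00000026628, chr1:191170296-191218039), a stress-induced factor of the ATF/CREB family, had 227, 55.4 and 404 CPM at 0.5 h, against 48.9, 41.2 and 86.7 CPM in ischemia and a mean of 8.47 CPM in sham. Replicate 2 of 0.5 h lay below ischemia 3, so the groups overlapped. The difference was 1.95 ± 0.48 (adjusted p = 0.147), and 2.35 ± 0.56 without ischemia 3 (adjusted p = 0.0165), or 2.25 ± 0.56 with the GC correction (adjusted p = 0.0654). Fancd2 (ENSMUSG00000034023, chr6:113531682-113597017), a DNA crosslink repair protein, had 0.838, 0.479 and 1.42 CPM at 0.5 h, against 1.27, 1.48 and 1.48 CPM in ischemia, on 45 and 67 reads in all. It was not called (-0.63 ± 0.66, adjusted p = 0.714; adjusted p = 0.682 without ischemia 3), and exons of Fancd2os overlap it.

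Of 30 tested genes of ferroptosis and iron handling, Atf3 and Sat1 were called higher without ischemia 3 (median 0.03, and 0.07 with all libraries). In that fit 4.31% of all tested genes were called higher, the share for this list and those of NRF2 and p53 targets below. Sat1 (chrX:155213132-155216449) had 120, 61.6 and 180 CPM at 0.5 h, against 42.2, 46.8 and 52.0 CPM in ischemia, where ischemia 3 stayed with its group. The difference was 1.36 ± 0.26 (adjusted p = 0.0526), 1.44 ± 0.30 without ischemia 3 (adjusted p = 0.00901), and 1.48 ± 0.27 with all libraries and the GC correction (adjusted p = 0.0378). Slc7a11, the cystine importer that opposes ferroptosis, had 2 reads at 0.5 h and 10 in ischemia. Of 28 targets of NRF2, the oxidant-sensing transcription factor, Keap1 and Taldo1 were called higher without ischemia 3 (median 0.09) and 0 with all libraries (median 0.14). Of 20 targets of p53, 4 were called higher without ischemia 3 (median 0.41, and 0.26 with all libraries and 0 calls): Btg2, Plk2, Plk3 and Tnfrsf10b. The kinase gene Plk2 was also called with the GC correction, with 111, 58.0 and 151 CPM at 0.5 h, against 39.7, 29.4 and 48.7 CPM in ischemia (1.44 ± 0.31, adjusted p = 0.073; 1.63 ± 0.36 without ischemia 3, adjusted p = 0.0112).

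The remaining lists had 0 to 3 calls each without ischemia 3, where 7.49% of all tested genes were called. Of 27 genes of ion channels and calcium handling, Hcn2 was called higher and Pln and Trdn lower without ischemia 3 (median -0.03), and 0 with the correction. Pln, the inhibitor of the calcium pump of the sarcoplasmic reticulum, had 4610, 4644 and 4824 CPM at 0.5 h, against 6918, 6914 and 4273 CPM in ischemia, with ischemia 3 the lowest of the 6 (-0.56 ± 0.16, adjusted p = 0.0355, and adjusted p = 0.394 with ischemia 3). None of 15 wall stress and fetal genes was called in either fit (medians of 0.08 and 0.24 without ischemia 3). Of 18 clock genes, Nr1d1, a repressor of the clock, was called higher without ischemia 3, with 84.7, 65.0 and 103 CPM at 0.5 h, against 33.9, 48.2 and 50.1 CPM in ischemia (0.93 ± 0.26, adjusted p = 0.229; 1.04 ± 0.30, adjusted p = 0.0396). Exons of Nr1d1 overlap Thra on the opposite strand, and reads of Thra may be counted with it. Among genes of hydrogen peroxide, hypoxanthine and adenosine handling, 15 tested with all libraries and 16 without ischemia 3, the calls without it were Cyba higher and Cybb lower, both NADPH oxidase subunits. Nt5e, the enzyme that makes adenosine outside the cell, had 25.3, 18.4 and 18.9 CPM at 0.5 h, against 35.4, 34.0 and 35.5 CPM in ischemia, and was not called (-0.75 ± 0.25, adjusted p = 0.298; adjusted p = 0.115 without ischemia 3).

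Of the 15 lists of cell type markers, 0 had a call with all libraries. Without ischemia 3, 4 of 10 monocyte markers were called lower (Ly6c2, Plac8, Ccr2 and Vcan), where 3.17% of all tested genes were called lower, and 2 of 11 markers each of fibroblasts (Dcn and Lum) and resident macrophages (Mrc1 and Adgre1). Ly6c2 rested on 6 reads at 0.5 h and 24 in ischemia, with 33.7% of its reads mapped to a single place, and Plac8 on 14 reads at 0.5 h and 45 in ischemia. Mrc1, the mannose receptor of resident macrophages, had 39.1, 35.9 and 30.9 CPM at 0.5 h, against 65.7, 46.7 and 42.0 CPM in ischemia, with no overlap (-0.67 ± 0.16, adjusted p = 0.0141, and adjusted p = 0.229 with ischemia 3). Among endothelial markers Tie1 and Cldn5 were called higher and Emcn lower. Cldn5, a tight junction protein, had 128, 76.4 and 107 CPM at 0.5 h, against 28.6, 34.1 and 102 CPM in ischemia, so ischemia 3 lay among the 0.5 h libraries (1.73 ± 0.34, adjusted p = 0.00687, and adjusted p = 0.359 with ischemia 3). In smooth muscle and pericytes Kcnj8 was called higher and Rgs5 lower, and in ventricular cardiomyocytes Fabp3 higher and Pln lower. With the GC correction 0 markers of any list were called. Neutrophil markers summed to 17.5 to 26.8 CPM at 0.5 h and 17.8 to 23.9 CPM in ischemia, and adipocyte markers to at most 0.539 and 0.603 CPM.

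The 10 largest rises without ischemia 3, among called genes with a mean of at least 5 CPM in the higher group and no overlap with ischemia replicates 1 and 2, were Hspa1b, Hspa1a, Junb, Gm16418, Ier5, Jun, Dnajb1, Atf3, Gdf15 and mt-Atp8. Gm16418, a processed pseudogene, had 27.4, 18.01 and 18.5 CPM at 0.5 h, against 2.68, 5.02 and 20.5 CPM in ischemia (2.47 ± 0.53, adjusted p = 0.00928, and adjusted p = 0.384 with ischemia 3). Gdf15, a stress-induced cytokine, had 5.29, 2.33 and 7.69 CPM at 0.5 h, against 0.737, 1.41 and 3.24 CPM in ischemia (2.25 ± 0.59, adjusted p = 0.0261, and adjusted p = 0.298 with ischemia 3). The 8 largest falls were Gbp10, 9430062P05Rik, Gm43361, AI480526, Rps27rt, Cxcl9, Gm38077 and Zfp748, between -1.99 and -1.24 on the log2 scale. Only 42.5% of the reads of Gbp10 mapped to a single place. Exons of Gbp10 overlap Gm43302 and those of Gm38077 overlap Mrpl3, both on the same strand. Exons of Gm43361 overlap Atp2a2 on the opposite strand, and AI480526 and Zfp748 also have exon overlaps on the opposite strand. Reads of the overlapping genes may be counted with them. The long noncoding RNA AI480526 kept ischemia 3 nearer to its group, with 2.45, 2.99 and 1.07 CPM at 0.5 h, against 6.97, 5.79 and 4.66 CPM in ischemia (-1.42 ± 0.32, adjusted p = 0.0887; -1.56 ± 0.34 without ischemia 3, adjusted p = 0.0112). Rps27rt, a copy of the ribosomal protein gene Rps27, had 6.83, 7.72 and 7.34 CPM at 0.5 h, against 23.8, 18.6 and 8.56 CPM in ischemia (-1.21 ± 0.28, adjusted p = 0.103; -1.54 ± 0.24 without ischemia 3, adjusted p = 0.00232). Cxcl9, an interferon-induced chemokine, and Gbp10, an interferon-induced GTPase, were highest in ischemia replicate 2, at 25.01 and 11.7 CPM, where ischemia replicate 1 had 9.86 and 2.21 CPM. Of the 18 genes, 7 were called with the GC correction and 5 with the duplicate covariate, and 0 when ischemia replicate 1 was left out as well, which left 1 ischemia library.

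The later times place the 0.5 h values in a course, given as a description. Mean Hspa1b stood at 1.89 CPM in sham, 2.10 in ischemia, 311 at 0.5 h, 465 at 1 h, 661 at 1.5 h, 666 at 3 h, 140 at 6 h and 10.2 CPM at 12 h. Within 0.5 h the libraries ranged from 67.4 to 736 CPM, and within 1 h from 271 to 671 CPM. Jun had its highest mean at 1 h, with 783 CPM, and stood at 225 CPM at 3 h and 59.8 CPM at 12 h, near the 48.6 CPM of sham. Klf2 had 41.0 CPM in sham, 76.1 in ischemia, 223 at 0.5 h, 259 at 1 h, 193 at 1.5 h and 83.1 CPM at 3 h. Its ischemia libraries, at 59.3 to 95.7 CPM, already lay above those of sham, at 33.6 to 47.8 CPM. Atf3 had its highest mean at 1.5 h, with 576 CPM, and Dnajb1 at the same time, with 245 CPM. Plekhh3 was highest at 0.5 h, with 23.7 CPM, and stood at 19.2 CPM at 1 h, 13.4 CPM at 1.5 h and 9.56 CPM at 3 h, against 13.0 CPM in sham. The GC tilt ran from -0.0786 to 0.170 at 1 h, from -0.141 to 0.0588 at 1.5 h and from 0.195 to 0.410 at 3 h. Its part in the course of Plekhh3 was not tested.

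**Figure D5:**
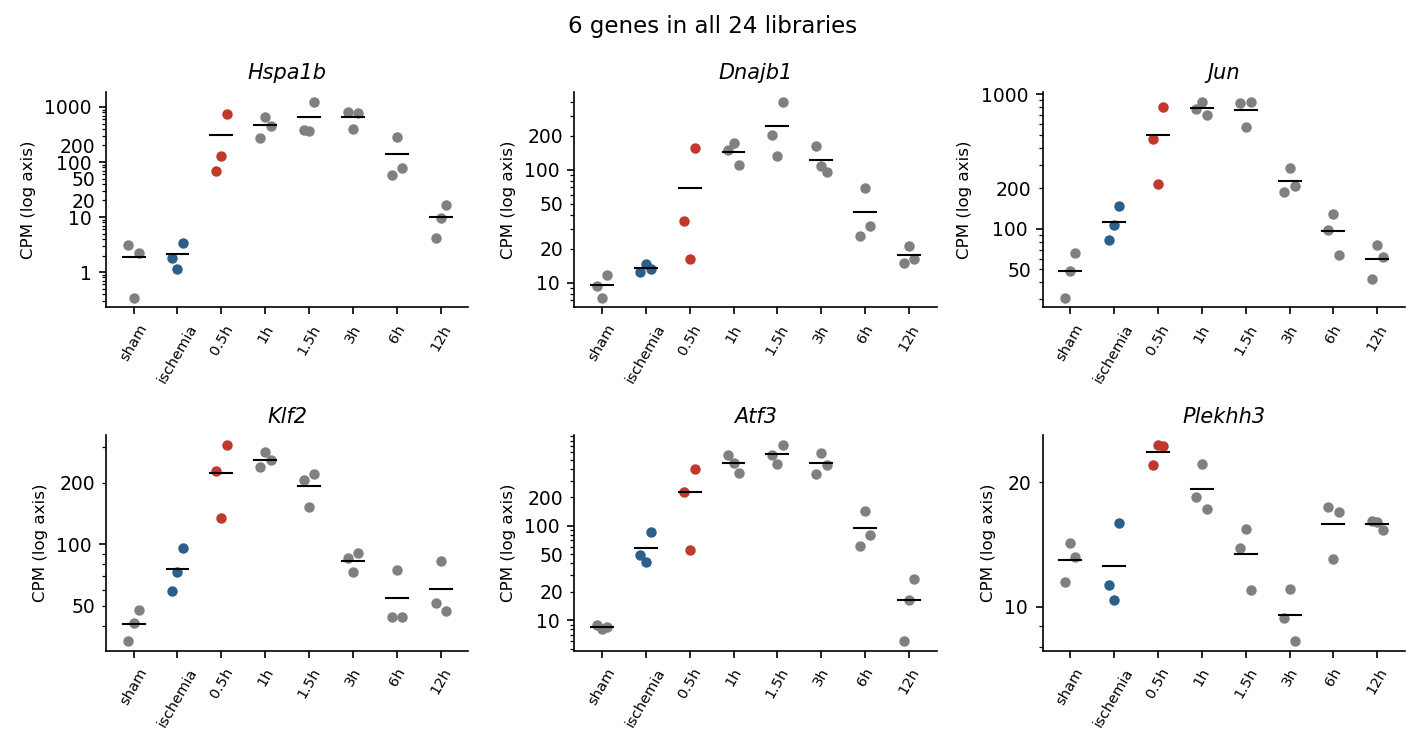
CPM (log axis) of 6 genes in all 24 libraries from sham to 12 h of reperfusion; red is 0.5 h, blue ischemia, grey the other groups, points are libraries and black bars group means. Mean Hspa1b is 1.89 CPM in sham, 666 CPM at 3 h and 10.2 CPM at 12 h, Jun is highest at 1 h, and Plekhh3 is highest at 0.5 h.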

How the data were processed

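Total RNA of frozen heart tissue was made into TruSeq libraries, per the labels' protocols. The authors deposited, per the file headers, counts of reads per Ensembl gene for each library, with and without duplicate and multiply mapped reads, and RPKM values, which were not used for any result. The submitters' processing notes name mm10 as the build. Aligner, counter and strand setting: not given in the sources used here. Samples were grouped by treatment label, and p-values measure the spread between libraries, which may be technical.

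Uniquely mapped counts of all 24 libraries entered edgeR 4.0.16 (R 4.3.3; TMM, a minimum count of 10 and total of 15, quasi-likelihood test), with groups as the only factor, Benjamini-Hochberg adjustment over all tested genes and a threshold of 0.05. The fit was repeated without ischemia replicate 3. Alternatives used DESeq2 1.42.0, limma 3.58.1, other scalings, filters and read sets, a replicate block and single libraries left out. The GC content correction (a spline of each library's log2 deviation on the GC content of the longest GENCODE transcript) and the duplicate covariate were chosen after seeing the data. Library shares were compared by two-sided exact permutation tests.

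The genes named were those called with all libraries, the 10 largest rises and 8 largest falls without ischemia replicate 3 (called, at least 5 CPM in the higher group, no overlap), up to 4 members of each list with the smallest p, and Atf3 and Fancd2. Other members, and Esrra, were named after their values were seen. Members and lists were chosen with earlier results of these data known. A member of the shear flow list is not reported here.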

Additional observations from a re-analysis of the deposited data

How the results depend on the processing

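With all libraries, 5 genes were called, and 5 with DESeq2 size factors, 6 with library totals, 4 with limma-voom, 5 with mitochondrial genes left out and 4 with GC content correction. The count was 59 with DESeq2, 2047 with limma-voom and sample quality weights, 329 with no filter, 15 with duplicates removed, 8 with multiply mapped reads included, 0 in a fit to the 6 libraries (1540 at an unadjusted p under 0.05 in edgeR) and 2 with the duplicate share as a covariate, and ran from 2 to 1156 when single libraries were left out. The sample quality weights were 0.303 for ischemia replicate 3 and 0.781 to 1.83 for the other 5 libraries of the 2 groups. Over all 24 libraries the lowest weight was 0.241, for 1 h replicate 1.

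Without ischemia replicate 3, 1156 genes were called, and 2590 with sample quality weights, 2522 in a fit to the libraries of the groups alone, 32 with the duplicate covariate, 94 with GC content correction and 7 to 581 when a further library was left out. Library totals gave 1100, of which 84.2% were higher, against 57.6% in the TMM fit, and moved the median of all genes to 0.09, from -0.01. With the replicate block, 12 genes were called with all libraries and 912 without ischemia replicate 3. The labels do not say whether same-numbered libraries belong together. Deviations of same-numbered libraries from their group means correlated at -0.0947, -0.0462 and 0.022. With so few libraries per group, and ischemia replicate 3 far from its group, these values cannot decide it. The causes of these changes were not tested. Low counts limit Fancd2, Ccl4, Slc7a11, Ly6c2 and Plac8. Exons of Zfp36, Zfp36l1, Ppp1r15a, Pdia3, Dll4, Edn1 and Pln also overlap genes on the opposite strand, whose reads may be counted with them.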
